A study of Rattus norvegicus with 6 samples.

Results

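Ubtf encodes UBF, a nucleolar DNA-binding protein with HMG boxes that opens ribosomal RNA genes for RNA polymerase I. By doing so it helps set how much ribosomal RNA a cell makes, and in mammals its messenger RNA is spliced into a long and a short form. The transcripts described here are listed by the authors as long non-coding RNAs (lncRNAs). They are assembled isoforms of a single locus, MSTRG.3250, that the authors' deposited list of differing lncRNAs ties to Ubtf as a source gene. MSTRG names are given by the transcript assembler StringTie to what it assembles, and the last number counts the isoforms of a locus.

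All 6 rows of the expression table whose identifier begins with MSTRG.3250. were taken, out of 4972 transcripts. These are isoforms 1, 2, 4, 5, 6 and 7, with no row for isoform 3. Sums and shares of the locus below are therefore those of these 6 isoforms only. The source gene (ENSRNOG00000020937, Ubtf) is given for isoform 2, MSTRG.3250.2. Source genes stand only in the authors' list of 56 transcripts, where 20 have one, so the other 5 isoforms, which are outside that list, could not show one. How that transcript relates to Ubtf (same strand, opposite strand, intronic) is not stated in the labels or tables used here. The locus was chosen from measured values, because MSTRG.3250.2 stands in the authors' list, which was made on TMAO against 2VO. Differences between these groups are therefore a description of the isoforms, with no test.

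The libraries came from rat hippocampus (total RNA). In the TMAO group, 2VO rats were given trimethylamine N-oxide, a product of gut bacterial and liver metabolism, at 120 mg/kg for 8 weeks. The 2VO group received sterile water in place of TMAO over the same 8 weeks. Each group has 3 libraries. All rats carry 2VO, which the series title calls vascular dementia, so nothing here compares 2VO with unoperated rats. Strain, age and sex are not given in the labels, nor is it said that libraries come from separate animals, so the spread is that between libraries and may be technical. Total lncRNA counts were 832233 to 883265 in the TMAO libraries and 901380 to 919024 in the 2VO libraries. The locus held 0.0190% to 0.0301% of them. None of 16 markers of hippocampus and neurons was found by name in the table, so the tissue label could not be checked in this way.

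In outline, isoforms 4 and 7 were present in all 6 libraries and held 79.4% to 96.2% of the locus counts. Isoforms 1, 2 and 5 came and went between libraries, and isoform 6 had no count anywhere. MSTRG.3250.2 was counted in TMAO-2 and TMAO-3 alone. The locus as a whole overlapped between TMAO and 2VO.

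MSTRG.3250.4 was the main isoform among those listed for the locus. It had 176, 154 and 111 counts in TMAO libraries 1, 2 and 3, against 88, 150 and 104 counts in 2VO libraries 1, 2 and 3. In FPKM (fragments scaled by transcript length and library depth, made by the authors) it measured 4.04, 3.96 and 2.87 in TMAO, against 2.18, 3.81 and 2.74 in 2VO. The groups overlapped, since TMAO-3 lay below 2VO-2. On the scale of counts scaled to the lncRNA table's depth (CPM), it averaged 167 ± 29.8 in TMAO and 128 ± 36.9 in 2VO (SD, n = 3 each). The fitted log2 fold change of TMAO over 2VO was 0.38 (SE 0.26).

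MSTRG.3250.7 was the second isoform by level. It had 76, 41 and 56 counts in TMAO, against 51, 53 and 72 counts in 2VO. Its level was 1.66, 1.00 and 1.38 FPKM in TMAO, against 1.19, 1.29 and 1.80 FPKM in 2VO. The groups overlapped, with TMAO-2 lowest of all 6 libraries and 2VO-3 highest. The means were 65.6 ± 16.9 CPM in TMAO and 66.1 ± 13.8 CPM in 2VO (SD, n = 3 each), and the log2 fold change was -0.01 (SE 0.27). Its sign turned between settings, as to 0.01 without a low-count filter.

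Between isoforms, levels can be compared in FPKM, which allows for length, though how reads were divided between isoforms is not stated. This comparison did not use the groups. MSTRG.3250.4 lay above MSTRG.3250.7 in 6 of 6 libraries, with ratios of FPKM of 2.43, 3.96 and 2.08 in the TMAO libraries and of 1.83, 2.95 and 1.52 in the 2VO libraries. The mean log2 ratio was 1.22 ± 0.49 (SD, n = 6 libraries), or 2.33-fold, with a two-sided exact sign-flip permutation p of 0.0312. That is the smallest p that 6 libraries can give, and it takes them as independent, which the labels do not establish. The pair is ranks 1 and 2 of an order read from these same libraries, so the p describes how steady that order was in them. It was the 1 pair tested of 5 neighbouring pairs, and no adjustment was made.

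**Figure D1:**
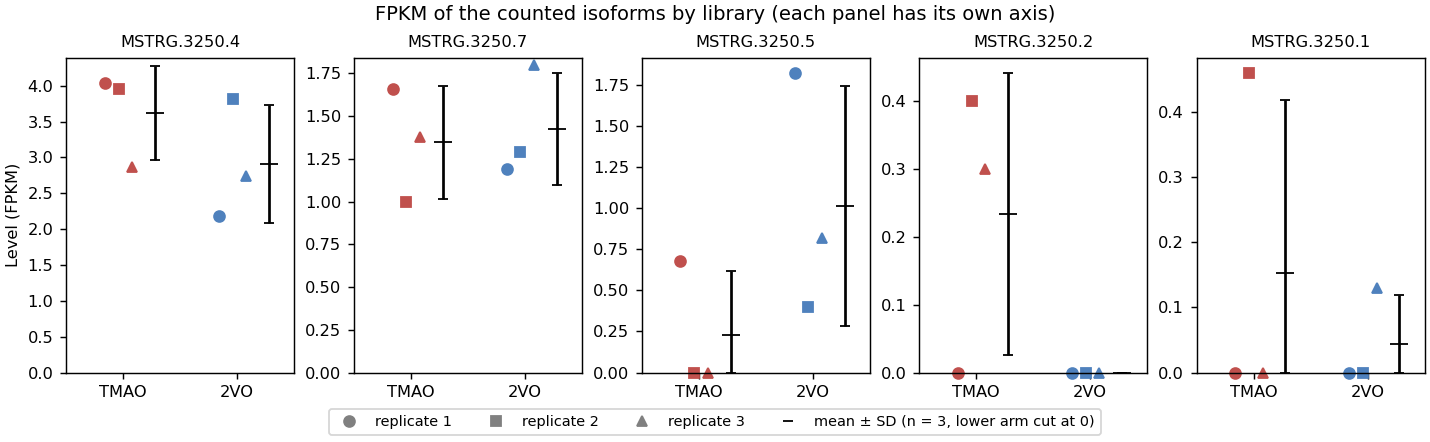
FPKM of the 5 counted isoforms in each library, with TMAO left of 2VO, a marker shape per replicate number and black bars for the mean ± SD (n = 3). The groups overlap or touch in every panel, and MSTRG.3250.2 is above 0 in TMAO-2 and TMAO-3 only, at 0.40 and 0.30 FPKM.

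The other neighbours in the order of mean FPKM were not tested, because the lower isoform was at 0 in 2 or more libraries. MSTRG.3250.7 (mean 1.39 FPKM over 6 libraries) lay above MSTRG.3250.5 (0.62 FPKM) in 5 libraries and below it in 2VO-1. MSTRG.3250.5 lay above MSTRG.3250.2 (0.117 FPKM) in 4 libraries and below it in the other 2. MSTRG.3250.2 and MSTRG.3250.1 (0.0983 FPKM) were both at 0 in 3 libraries, and the first lay above the second in 1 and below it in 2. No order between these last isoforms can be read beyond their spread.

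MSTRG.3250.2 is the isoform whose values brought the locus into view. It had 0, 19 and 14 counts in TMAO libraries 1, 2 and 3, against 0, 0 and 0 counts in the 2VO libraries. TMAO-1, the deepest of the TMAO libraries by table total, was at 0 like the 2VO libraries, so the groups were not separated. Pooled, MSTRG.3250.2 had 33 counts in TMAO against none in 2VO. With 3 counts in the 2VO group as the limit that a count of 0 allows (1.12 CPM), TMAO was 11.2-fold higher. This limit covers the counting error of the 0 only. The 33 counts were taken as exact and the spread between libraries is not covered, so 11.2 is no strict minimum. The ratio was 17.4 without TMAO-1 and 7.06 without TMAO-2.

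The authors' deposited table gives this isoform a mean of 0.233 FPKM in TMAO and of 0.001 in 2VO, where 0 was written as 0.001. The ratio of these is a log2 ratio of 7.87 in the authors' deposited table. That value rests on the number put in place of 0 and is no measured fold. The authors' deposited table also gives an unadjusted p of 0.00878, with a false discovery rate that stands at 0.796. Its list holds transcripts with an unadjusted p under 0.05 and an absolute log2 ratio above 1. It took 56 of 4972 transcripts (1.13%), of which 19 (0.382%) were higher in TMAO. Of the 6 isoforms 1 is in it, and that 1 is why the locus was chosen. The next isoform by p in the authors' deposited table, MSTRG.3250.5, lay outside the list with a p of 0.165 and a log2 ratio of -2.16.

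The test behind these authors' values could be found from the counts. DESeq2's Wald test, run here on all 2995 transcripts with a count, returned the authors' p-value to within 1e-06 for 2990 of the 2990 transcripts with a p, and for 5 of 5 counted isoforms of the locus.

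Transcripts that appear in few libraries are found elsewhere in the table too. With 20 to 50 counts in all there were 318 transcripts, of which 21 (6.60%) were at 0 in 4 or more libraries. In assembled loci with several listed transcripts there were 12 such transcripts, of which 3 (25%) were at 0 in 4 or more, and MSTRG.3250.2 and MSTRG.3250.1 are counted among those 3. Having 33 or more counts in exactly 2 libraries of a group and none in the other was seen for 3 transcripts in the TMAO direction, MSTRG.3250.2 included, and for 1 in the 2VO direction. These limits were set after its values were seen.

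MSTRG.3250.5 ran the other way by its means. It had 14, 0 and 0 counts in TMAO, against 36, 8 and 15 counts in 2VO. Its level was 0.68, 0 and 0 FPKM in TMAO, against 1.82, 0.40 and 0.82 FPKM in 2VO. It was counted in every 2VO library and in 1 of 3 TMAO libraries, and the groups overlapped because TMAO-1 lay above 2VO-2. Its means were 5.01 ± 8.68 CPM in TMAO and 22.0 ± 16 CPM in 2VO (SD, n = 3 each). The ratio of pooled counts, TMAO over 2VO, was 0.242, with a 95% exact binomial interval of 0.125 to 0.438 that covers counting error only and not the spread between libraries. The fitted log2 fold change was -2.07 (SE 1.31), and without 2VO-1 it was -1.31.

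The 2VO-1 library held 36 of the 59 counts of MSTRG.3250.5 in 2VO. In the same library, 3 transcripts with a source gene among the marker lists were also highest. How many transcripts of the whole table were highest in 2VO-1 was not counted, so nothing is read from this match. A source gene is given only for transcripts in the authors' list, so these 3 were bound to differ between TMAO and 2VO, and markers that do not differ could not be found this way. A transcript with the endothelial and blood-forming cell marker Cd34 as source gene had 95, 63 and 85 counts in TMAO, against 257, 97 and 126 counts in 2VO. The immune list had 2 of 6 genes found, Ccl5 and Tlr9, each as the source gene of a lncRNA transcript. The summed level of these transcripts was 7.21 to 10.7 CPM in TMAO and 18.1 to 100.8 CPM in 2VO, highest in 2VO-1. The Ccl5-source transcript, below the low-count filter, had 1, 2 and 1 counts in TMAO, against 55, 5 and 14 counts in 2VO. The Tlr9-source transcript had 9, 5 and 5 counts in TMAO, against 36, 11 and 19 counts in 2VO. The lists of astrocytes, oligodendrocytes, choroid plexus and blood had no gene found by name, which says nothing of their levels. How these lncRNA transcripts relate to the genes named is not stated, so they are no measure of cell types. The part of any cell type in the isoform's level was not tested. In bulk tissue, fewer cells of a type and less RNA per cell cannot be told apart.

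MSTRG.3250.1 had 0, 17 and 0 counts in TMAO, against 0, 0 and 4 counts in 2VO. A single library in each group gave all its counts, TMAO-2 and 2VO-3. The ratio of pooled counts, TMAO over 2VO, was 4.33, with a 95% exact binomial interval of 1.41 to 17.7 for counting error only. The fitted log2 fold change was 2.05 (SE 1.86). Without TMAO-2 no TMAO count remained, and without 2VO-3 no 2VO count did. MSTRG.3250.6 had no count in any of the 6 libraries, and 3 counts spread over them would equal 0.567 CPM.

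Isoforms 2 and 5 were not counted together in any library. Isoform 5 had counts in TMAO-1 and the 3 2VO libraries, and isoform 2 in TMAO-2 and TMAO-3. Isoform 1 was counted once beside isoform 2, in TMAO-2, and once beside isoform 5, in 2VO-3. Summed, isoforms 1, 2 and 5 had 14, 36 and 14 counts in TMAO, against 36, 8 and 19 counts in 2VO. Group totals were close, at 64 counts in TMAO and 63 in 2VO, or 24.6 ± 15.1 CPM in TMAO and 23.5 ± 15.5 CPM in 2VO (SD, n = 3 each). This sum was formed after the values were seen. How the authors divided reads between overlapping isoforms is not stated in the labels, so each isoform's count carries that uncertainty, which the locus sum avoids as far as isoforms of the table go.

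The ratio of count to FPKM gave approximate relative lengths, with MSTRG.3250.4 as 1 in the same library. MSTRG.3250.5 was the shortest, at a median of 0.486 (0.473 to 0.508 over 4 libraries). MSTRG.3250.1 was at 0.880 (0.811 to 0.95 over 2 libraries), MSTRG.3250.7 at 1.05 (1.04 to 1.06 over 6) and MSTRG.3250.2, the longest, at 1.21 (1.21 to 1.22 over 2). FPKM was deposited to 2 decimals, so the ratios of low isoforms are coarse. For MSTRG.3250.1, MSTRG.3250.5 and MSTRG.3250.7 this rounding does not cover the spread between libraries. For MSTRG.3250.5, rounding puts the ratio at 0.501 or more in 1 library and at 0.477 or less in another. The ratio is therefore no fixed length, and the reason was not tested. At its median ratio, a given count of MSTRG.3250.5 weighs 2.06 times as much in FPKM as the same count of MSTRG.3250.4.

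As a share of the locus counts, MSTRG.3250.4 held 66.2%, 66.7% and 61.3% in the TMAO libraries, against 50.3%, 71.1% and 53.3% in the 2VO libraries. The 95% exact binomial (Clopper-Pearson) intervals, for counting error only, were 60.1% to 71.8%, 60.2% to 72.7% and 53.8% to 68.5% in TMAO, against 42.6% to 57.9%, 64.5% to 77.1% and 46.1% to 60.5% in 2VO. The 3 TMAO libraries lay close together and between the highest and the middle 2VO library. Means were 64.7 ± 2.95% in TMAO and 58.2 ± 11.2% in 2VO (SD, n = 3 each), a difference of 6.48 percentage points that is smaller than the 2VO spread. It was 2.51 points without 2VO-1, 4.03 without 2VO-3, 12.9 without 2VO-2, and 11.1 as a share of summed FPKM. MSTRG.3250.7 held 25.8 ± 7.03% in TMAO and 30.4 ± 6.0% in 2VO, a difference of -4.64 points. It was -0.64 without TMAO-2, -1.38 without 2VO-3, -7.28 without 2VO-2, -7.23 without TMAO-3, and -1.88 in FPKM.

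The share of MSTRG.3250.5 was 1.75 ± 3.04% in TMAO and 10.7 ± 8.78% in 2VO (SD, n = 3 each), a difference of -8.93 points, and -15.5 points as a share of summed FPKM. In 2VO-1 it was 20.6% (95% exact interval 14.8% to 27.3%). MSTRG.3250.2 held 8.23% (5.02% to 12.5%) of the locus in TMAO-2 and 7.73% (4.29% to 12.6%) in TMAO-3. Its 0 of 266 counts in TMAO-1 allows a share of up to 1.13%, and 0 of 175, 211 and 195 counts in the 2VO libraries allows up to 1.71%, 1.42% and 1.54%. These limits for 0 stand for 3 counts, and the 95% exact intervals ended higher, at 2.09%, 1.73% and 1.87% in the 2VO libraries. The 95% exact interval of TMAO-1 ended at 1.38%. That lay below the intervals of TMAO-2 and TMAO-3, if counts are taken as independent draws. How reads were divided between isoforms is not in these intervals. The libraries were compared after their values were seen, so this is a description.

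**Figure D2:**
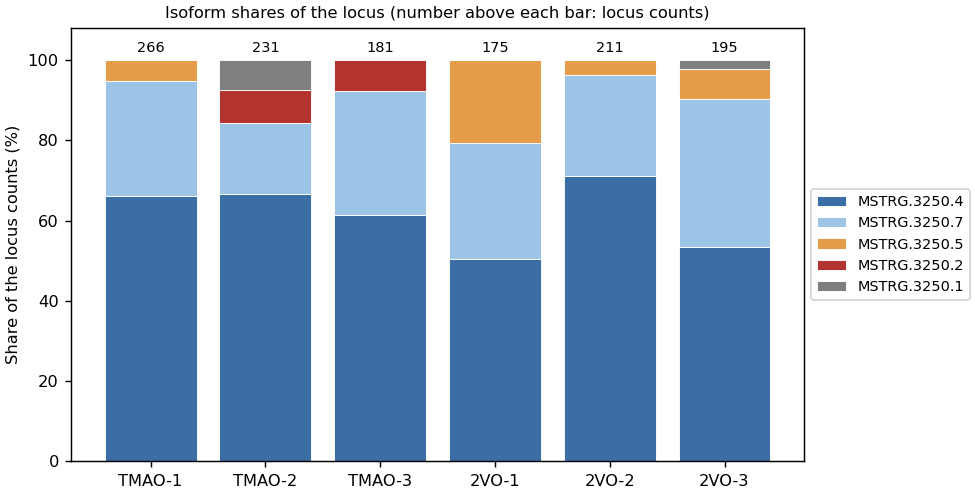
Share of the locus counts (%) held by each isoform in each library, with the 3 TMAO libraries left of the 3 2VO libraries and the locus count above each bar. MSTRG.3250.4 holds 50.3% to 71.1% throughout, and MSTRG.3250.5 and MSTRG.3250.2 share no library.

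Adding up the share that moved between isoforms, 13.6 percentage points separated the mean TMAO profile from the mean 2VO profile. Between single libraries, a TMAO and a 2VO library differed by 17.5 points on average over 9 pairs, and libraries of 1 group by 15.1 points over 6 pairs. This difference was not tested. Among 92 assembled loci with several listed transcripts and at least 50 counts in each library, the median between group means was 4.19 points and the Ubtf-source locus ranked at 13. Shares of loci with few counts scatter more. This locus met the count rule like the others but was picked out for its group values, so the rank is a description.

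Summed over its isoforms, the locus had 266, 231 and 181 counts in TMAO, against 175, 211 and 195 counts in 2VO. On the CPM scale this was 286, 270 and 218 in TMAO, against 194, 238 and 222 in 2VO. TMAO-1 and TMAO-2 lay above all 2VO libraries, and TMAO-3 lay within their range, so the groups overlapped. Means were 258 ± 35.6 CPM in TMAO and 218 ± 22.3 CPM in 2VO (SD, n = 3 each). This was 1.18-fold higher in TMAO, or 0.24 on the log2 scale. With whole-library sizes in place of those of the lncRNA table, the log2 ratio was 0.17. Without MSTRG.3250.2 the means were 245 ± 42.5 CPM in TMAO and 218 ± 22.3 CPM in 2VO, 1.12-fold higher. In FPKM the sums were 5.58 ± 0.94 in TMAO and 5.39 ± 0.18 in 2VO, 1.04-fold higher, and without MSTRG.3250.2 they were 5.35 ± 1.07 in TMAO and 5.39 ± 0.18 in 2VO, so the direction turned with that isoform.

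**Figure D3:**
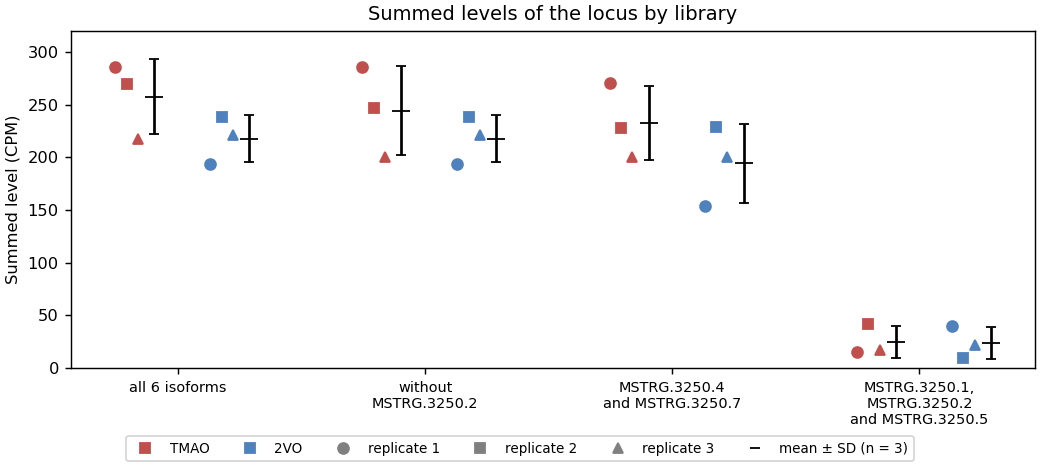
Summed CPM of the locus in each library for all 6 isoforms, without MSTRG.3250.2, for the pair of main isoforms and for isoforms 1, 2 and 5, with TMAO left of 2VO and bars for the mean ± SD (n = 3). TMAO and 2VO overlap in each of the 4 sums, and isoforms 1, 2 and 5 add 24.6 CPM in TMAO and 23.5 CPM in 2VO.

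Of the 6 isoforms, 3 passed the low-count filter of the edgeR quasi-likelihood test (isoforms 4, 5 and 7), and isoforms 1, 2 and 6 did not. Of those 3, 0 had an adjusted p under 0.05, where 0% of the 1389 transcripts tested did, and 0 had an unadjusted p under 0.05, where 7.56% did. This second count was 1 (MSTRG.3250.5) with limma at pseudocounts of 0.1 and 0.01, with the replicate number as a block in edgeR and without TMAO-1, and 1 (MSTRG.3250.4) without 2VO-2. Over all transcripts tested it was 132 and 125 of 1785 in these limma fits and 98 of 1389 with the block. Without TMAO-1 it was 88 of 1461, and without 2VO-2 it was 107 of 1458. None of the 3 had groups that did not overlap on the CPM scale, against 14.4% of the tested transcripts. The locus was chosen on this contrast, so nothing is read from these counts.

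**Figure D4:**
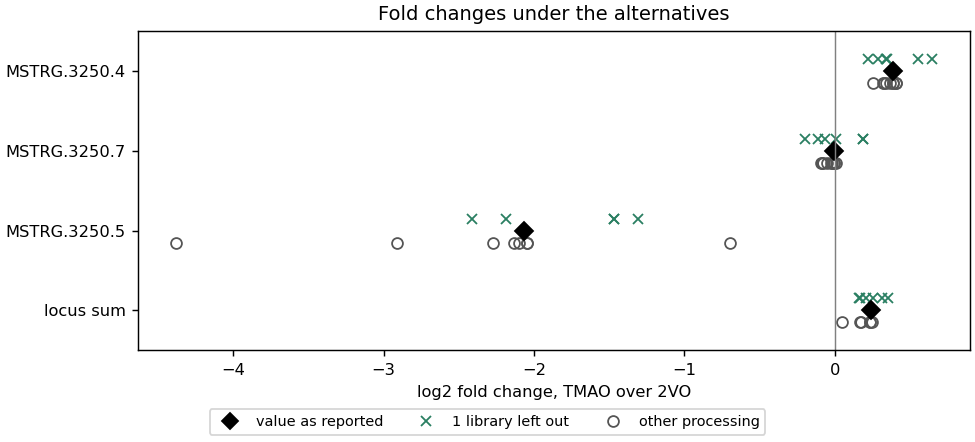
Log2 fold change of TMAO over 2VO for the isoforms that passed the filter and for the locus sum, as reported (diamonds), with 1 library left out (crosses) and under other processing (circles). In the values drawn, MSTRG.3250.4 and the locus sum stay above 0, MSTRG.3250.5 stays below 0, and MSTRG.3250.7 falls on both sides of it. The summed FPKM without MSTRG.3250.2, which is not drawn, was 0.992-fold in TMAO over 2VO, so the locus sum turned there.

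Few transcripts of the table can be tied to a gene by name, so the pathway around Ubtf could not be followed here. Of 40 genes of RNA polymerase I and ribosomal RNA processing, such as Polr1a (the largest subunit of RNA polymerase I), Rrn3 (the factor that brings the polymerase to the promoter) and Fbl (the methyltransferase of box C/D snoRNPs), 0 were found by symbol or source gene. Of 18 lncRNA genes that host snoRNAs, such as Gas5 and Snhg1, and of 14 genes known to lie near Ubtf, 0 were found. No other transcript was named Ubtf, by symbol in the table or by source gene in the list of 56. The remaining 4916 transcripts have no source gene given, so these counts of 0 do not show that such transcripts are missing from the table. In the RefSeq annotation of assembly GRCr8, which is not the build of the files (rn6), Ubtf lies between Atxn7l3 and Slc4a1, and a lncRNA gene, LOC134480881, overlaps it. Whether MSTRG.3250 is that gene was not tested, since no coordinates of the locus are given here.

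Likeness of pattern over the 6 libraries was described by Pearson's r of log2(CPM + 1), across 1386 other tested transcripts. MSTRG.3250.2 was most like ENSRNOT00000110702 (r = 0.98), which had 38, 66 and 54 counts in TMAO, against 36, 35 and 39 counts in 2VO. The next were ENSRNOT00000112495, MSTRG.5720.1, MSTRG.13852.1 and ENSRNOT00000094416, at r from 0.95 to 0.97. All 5 had their highest counts in TMAO-2 and TMAO-3, though their ranges differed from that of an isoform at 0 in the other libraries. The locus sum was most like ENSRNOT00000102089 (r = 0.99), with 24, 22 and 10 counts in TMAO, against 6, 14 and 11 counts in 2VO. ENSRNOT00000115088, ENSRNOT00000113576, ENSRNOT00000113002 and MSTRG.11139.1 followed, at r from 0.93 to 0.97. None of the 10 has a gene symbol or a source gene in the deposited tables. With 6 points and this many candidates, high values of r arise easily, and they carry no p.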

How the data were processed

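The authors deposited raw read counts and FPKM values (rounded to 2 decimals) for 4972 lncRNA transcripts in 6 rat hippocampus libraries, per the file headers. The same deposited table holds the authors' group means, log2 ratio, p-value and false discovery rate, per the file headers. Tools named in the submitters' processing notes are HISAT2 2.1.0, Bowtie2, fastp 0.18.0, DESeq2 and StringTie, and the build there is rn6. No strand setting or counter is given in the sources used here.

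All transcripts were fitted together with edgeR 4.0.16 (quasi-likelihood test, TMM, filterByExpr with minimum count 10 and total 15) in R 4.3.3, with Benjamini-Hochberg adjustment and the group as the only term. CPM used TMM effective library sizes. The log2 fold change of MSTRG.3250.1, below the filter, came from the fit without it. Alternatives used DESeq2 1.42.0, limma 3.58.1 on log2(FPKM + pseudocount), other scalings and filters, and each library left out. Whole-library sizes came from count over FPKM in 224 transcripts. Figures used matplotlib 3.10.9.

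Named transcripts were all isoforms, members of the fixed lists, and the 5 most like MSTRG.3250.2 and the 5 most like the locus sum. Members and lists were chosen with earlier results of these data known. Every pair of libraries of a group differed by more than counting error, with chi-square per degree of freedom of 12.7 to 17.8. No such pair was therefore the same library sequenced again. Separate preparations from the same animal could also differ by more than counting error, so this check cannot tell whether animals were separate.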

Additional observations from a re-analysis of the deposited data

How the results depend on the processing

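Transcripts past an adjusted p of 0.05 over the whole table numbered 0 in edgeR, with 105 at an unadjusted p under 0.05, against 14 with DESeq2. In limma there were 2 at a pseudocount of 0.1, 2 at 0.01 and 0 at 1. Leaving out single libraries gave 0 to 1 (the 1 without TMAO-2). The log2 fold change of MSTRG.3250.5, -2.07, was -4.38 with limma at a pseudocount of 0.01 and -0.70 at 1, and -2.41 to -1.31 with a library left out. Without TMAO-1 no TMAO count remained. With 3 counts over the group in place of 0, and the 2VO counts taken as exact, MSTRG.3250.5 was 12.4-fold lower in TMAO. The replicate number as a block moved the log2 fold change of MSTRG.3250.5 to -2.91, and that of the locus sum, 0.24, to 0.23. Same-numbered libraries deviated from their group means with correlations of -0.07, 0.21 and 0.04, so the numbers were not read as pairs. For MSTRG.3250.7, the log2 fold change of -0.0084 became 0.0087 without the low-count filter and ran from -0.20 to 0.19 with a library left out, and the cause was not tested. For MSTRG.3250.4 it ran from 0.22 (without 2VO-1) to 0.64 (without 2VO-2), and it was 0.32 with whole-library sizes.

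The log2 fold change of the locus sum was 0.17 with whole-library sizes and 0.050 as summed FPKM. It ran from 0.16 (without TMAO-1) to 0.35 (without TMAO-3) with a library left out. The difference in share of MSTRG.3250.5, -8.93 points, was -15.5 in FPKM and -12.4 to -3.99 with a library left out, and that of MSTRG.3250.1, 1.77 points, ran from -0.68 (without TMAO-2) to 3.0. The ratio of MSTRG.3250.4 to MSTRG.3250.7 stayed at 1.07 to 1.35 on the log2 scale with a library left out, at an exact permutation p of 0.0625, the smallest for 5 libraries. MSTRG.3250.1 and MSTRG.3250.2 had no value under limma, which asked for at least 0.1 FPKM in more than the 2 libraries where each was counted. MSTRG.3250.1, MSTRG.3250.2 and MSTRG.3250.5 had too few counts for a value at a mean count of at least 50. Isoforms 1, 2 and 5 together had 127 counts over 6 libraries, so their values rest on few counts. Why they were at 0 in some libraries was not tested.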
